A study of Mus musculus with 32 samples.

Results

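Genes of cholesterol and fatty acid synthesis were followed from naive pluripotency to the germ line in mouse cells. The set was a fixed list of 32 genes, and a gene was included where the array annotation gave a probe set with exactly that 1 symbol. This held for 31 of them, out of 18193 genes measured in all, and every one of the 31 passed the filter on dim signals. Acat2 was not analysed here. Each gene was read from its brightest probe set. By role, 7 genes act in the mevalonate part of the pathway, 11 between squalene and the sterols, 4 in the control of the pathway or the transport of sterol, and 9 in the making and desaturation of fatty acids.

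Global expression was measured on 1-colour Affymetrix arrays in 32 samples, 2 per group in 16 groups. The new arrays (22 arrays, 11 groups) came from male ESCs of the C57BL/6 + 129 background, all carrying the Blimp1-mVenus and stella-ECFP reporters and a Rosa26-rtTA transactivator that responds to doxycycline. The parental clone, BVSCR26rtTA, has no further transgene. It gave EpiLCs after 36 h (epiblast-like cells, the cultured counterpart of the epiblast), Ck-PGCLCs (primordial germ cell-like cells made with cytokines) at day 2 and day 4, and cells given doxycycline for 2 days as the negative control. The cytokine mix of Ck-PGCLCs held, in ng/ml, 500 of BMP4, 500 of BMP8A, 100 of SCF and 50 of EGF, beside 1000 U/ml of LIF. The TF-PGCLCs (made with transcription factors) carried tetO-driven piggyBac transgenes for tagged factors: Blimp1, Prdm14 and Tfap2c in BP14A cells, Blimp1 and Prdm14 in BP14 cells, Prdm14 and Tfap2c in P14A cells, and Prdm14 in P14 cells. They were aggregated from EpiLCs at 2000 cells per well with 1.5 μg/ml doxycycline and taken at day 2, and for BP14A also at day 4. BP14A ESCs were measured in 2i+LIF medium and, after 2 days of doxycycline, as stella-ECFP positive cells. The earlier arrays (10 arrays, 5 groups) held C57BL/6 material: male 2i+LIF ESCs, EpiLCs at 48 h and Ck-PGCLCs at day 6, all 3 with both reporters, and epiblast at embryonic day 5.5 and stella-EGFP PGCs at embryonic day 9.5, both of unknown sex. The labels do not say whether the parental cells with doxycycline were aggregated from EpiLCs.

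Cholesterol is made from acetyl-CoA through mevalonate, isoprenyl units and squalene, which is closed to lanosterol and trimmed to cholesterol. When sterol is scarce, the membrane-bound SREBP factors (Srebf1, Srebf2) are released and raise transcription of nearly the whole pathway, and INSIG1 holds them back when sterol is plentiful. Fatty acids start from the same acetyl-CoA, made from citrate by ACLY and committed by acetyl-CoA carboxylase (ACACA). In mouse the isoforms SCD1 and SCD2 place the first double bond.

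SREBP is known to act together with NF-Y and Sp1 at promoters of this pathway, so the 250 bases before the gene start were read for the genes that the results turn on (RefSeq, GRCm38.p6). In the sequences below, all 5′ to 3′ on the gene's strand, capitals mark matches on either strand to the sterol regulatory element TCACNCCAC, the NF-Y box CCAAT or the Sp1 box GGGCGG, and no match shown overlaps another. The first is the gene for HMG-CoA synthase, an early enzyme of the pathway (Hmgcs1), the next is for isoprenyl isomerase (Idi1), then lanosterol demethylase (Cyp51), and last the sterol isomerase Ebp, which moved against the others in several comparisons.
Hmgcs1, chr13:119690101-119690350, plus strand: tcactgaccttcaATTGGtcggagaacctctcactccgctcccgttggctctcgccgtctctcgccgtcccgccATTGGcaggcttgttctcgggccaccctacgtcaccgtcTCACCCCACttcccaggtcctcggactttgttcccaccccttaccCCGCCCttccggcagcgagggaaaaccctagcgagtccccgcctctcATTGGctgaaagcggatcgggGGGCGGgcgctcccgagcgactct
Idi1, chr13:8885356-8885605, plus strand: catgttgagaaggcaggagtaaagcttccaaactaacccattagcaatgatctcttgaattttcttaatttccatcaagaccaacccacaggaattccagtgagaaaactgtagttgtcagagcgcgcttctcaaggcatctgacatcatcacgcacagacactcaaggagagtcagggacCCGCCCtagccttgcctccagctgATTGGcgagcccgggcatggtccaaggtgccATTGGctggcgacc
Cyp51, chr5:4104698-4104947, minus strand: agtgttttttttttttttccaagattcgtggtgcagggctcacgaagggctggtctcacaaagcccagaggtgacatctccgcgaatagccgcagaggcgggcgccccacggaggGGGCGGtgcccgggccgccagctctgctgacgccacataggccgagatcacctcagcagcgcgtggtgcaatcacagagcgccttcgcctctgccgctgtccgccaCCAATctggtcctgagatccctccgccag
Ebp, chrX:8193513-8193762, minus strand: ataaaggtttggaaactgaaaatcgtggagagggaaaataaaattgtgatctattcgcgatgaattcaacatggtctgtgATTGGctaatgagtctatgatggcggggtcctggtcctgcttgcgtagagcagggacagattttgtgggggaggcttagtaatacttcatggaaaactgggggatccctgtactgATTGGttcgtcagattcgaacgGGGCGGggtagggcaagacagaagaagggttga
Windows were found for 24 of the 31 genes, 29 windows in all. CCAAT was present in 21 of the 29 windows (72.4%), against 33.8% of all 32851 windows of this length. GGGCGG was likewise present in 21 windows (72.4%), against 32.7% of all windows. TCACNCCAC was found in 1 window (3.45%), that of Hmgcs1, against 1.05% of all. Ebp, with 2 NF-Y boxes and 1 Sp1 box, held the same kinds of match as Idi1. These matches describe letters in the windows and were not tested as binding sites.

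Values are log2 expression after quantile normalization. A gene is said to have risen or fallen in a comparison where its change was at least 2-fold at a Benjamini-Hochberg adjusted p under 0.05 in a limma model of all 15497 genes tested. The number of arrays, 2 per group, limits the precision. In data simulated for the step from EpiLC to Ck-PGCLC day 2, this rule recovered 29% of 2-fold and 86% of 4-fold changes. It made 10 false calls among the genes without a planted change. A planted 2-fold change lies on the fold limit itself, so estimates just under it are lost at any number of arrays. Summed marker levels are the log2 of the summed signal of a list, in which the brightest genes weigh most. For the 7 early germ cell markers this was 13.54 to 14.62 in TF-PGCLCs, Ck-PGCLCs of day 4 and day 6 and PGCs. It was 11.54 and 11.70 in Ck-PGCLCs of day 2, and 9.47 and 9.57 in the parental cells with doxycycline. The latter had primitive streak markers at 11.98 and 11.71 summed. Their 3 definitive endoderm markers summed to 10.05 and 10.60, but this was mostly Foxa2, at 10.23 ± 0.42 (SD, n = 2). The mean log2 level of those 3 markers was 5.85 and 6.25. ESCs also held the 7 germ cell markers, at 12.83 and 12.99 in BP14A ESCs and 12.27 and 12.43 in the earlier ESCs. BP14A ESCs with doxycycline stood at 13.28 and 13.17. Visceral endoderm markers summed to 11.70 and 9.56 in the epiblast arrays and to 7.61 to 9.40 in the other earlier arrays, and fibroblast markers to 10.79 and 9.66 in PGCs and to at most 8.81 in the other earlier arrays. On 6 new arrays the 5′ Gapdh probe set lay more than 2.5 below the 3′ one: both of BP14A day 4, and 1 each of BP14, EpiLC, BP14A ESCs and BP14A ESCs with doxycycline. The Actb probe sets did not set these arrays apart in that direction, with a 5′ minus 3′ difference of -3.10 to -1.74 on them and of -3.56 to -2.17 on the other new arrays.

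**Figure D1:**
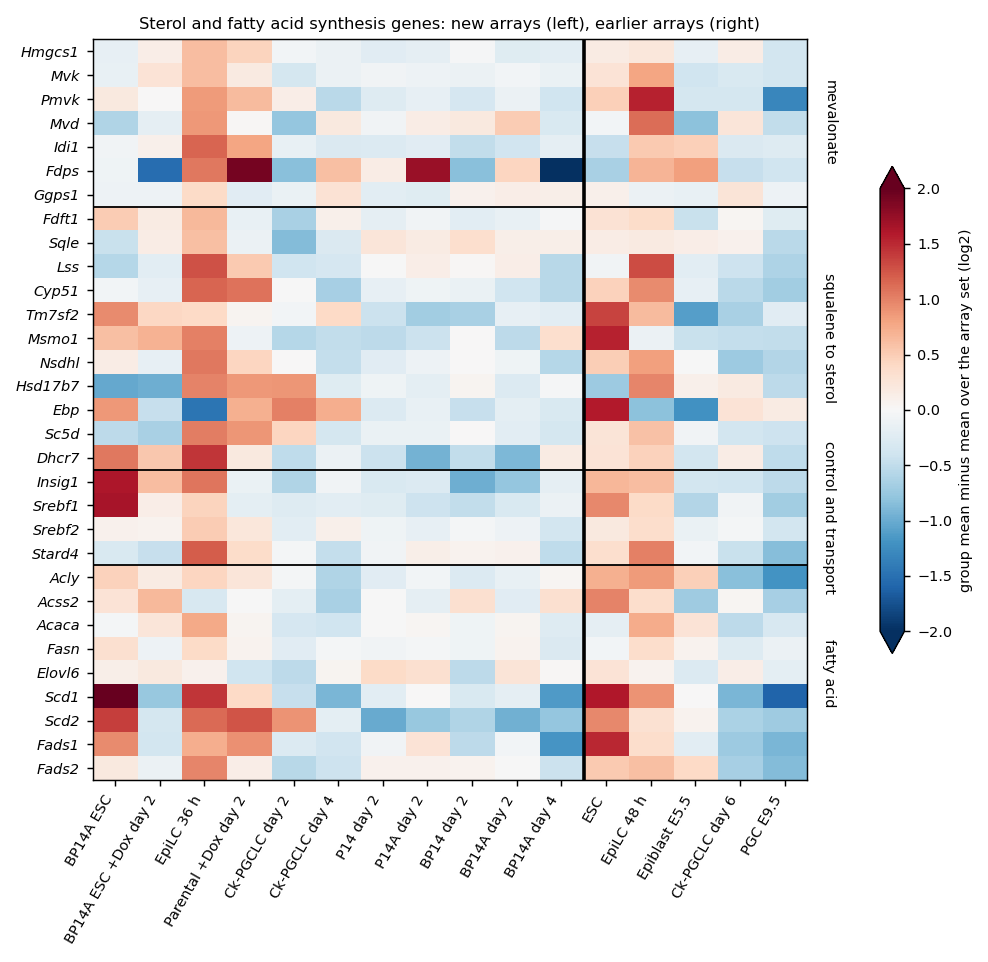
Mean log2 expression of the 31 genes (rows, by role) in 16 groups of 2 arrays (columns), as the difference from the gene's mean over the groups of the same array set, new to the left of the line and earlier to the right. EpiLCs of 36 h and 48 h are red in most rows, and Ebp is blue there.

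EpiLCs stood highest for the set as a whole. The median gene lay 0.91 and 0.74 above its own mean over the new arrays in the EpiLC arrays, 0.33 and 0.18 above it in the parental cells with doxycycline, and 0.11 and 0.27 above it in BP14A ESCs. On every array of the PGCLC groups it lay below, from -0.33 to -0.04. In the earlier arrays the order was EpiLCs (0.63 and 0.45), ESCs (0.41 and 0.36), epiblast (-0.12 and -0.17), Ck-PGCLCs of day 6 (-0.36 and -0.20) and PGCs (-0.51 and -0.52). The fatty acid genes differed in this order in the earlier arrays, with ESCs above EpiLCs (0.82 and 0.61 against 0.51 and 0.45). In the new arrays they did not, with BP14A ESCs at 0.30 and 0.38 and EpiLCs at 0.44 and 0.56. In such bulk values, fewer cells of a type and less RNA per cell cannot be told apart.

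The genes did not move as 1 block. Over the 11 new groups, Idi1, Nsdhl, Hmgcs1, Cyp51 and Srebf2 followed the mean of the other cholesterol enzymes most closely (r of 0.93, 0.91, 0.90, 0.90 and 0.89). Sqle and Ggps1 (both 0.23) followed that mean loosely. Ebp ran against it (-0.40), and the fatty acid genes Acss2 (-0.28) and Elovl6 (-0.10) also had a negative r. Of 465 pairs, the most opposed was Sqle with Ebp (-0.92). These correlations describe 11 group means that share a normalization. Hmgcs1, Srebf2 and Fasn spanned 0.86, 0.87 and 0.69 over all 16 groups. Fads1 (3.56), Scd1 (3.26) and Tm7sf2 (2.99) spanned more. Fdps spanned the most (5.46), but its lowest group, BP14A of day 4 (3.22), lay below the filter level. Its replicates also lay far apart in several groups.

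From ESCs to EpiLCs, Hsd17b7, Lss and Mvd rose and Ebp fell in both array sets. Between squalene and the sterols 5 of 11 genes rose in the new set and 2 of 11 in the earlier one, and in the mevalonate part 2 of 7 rose in each. In EpiLCs of the parental clone against BP14A ESCs, 8 genes rose and 2 fell, against 7.17% and 7.45% of all genes, and the median change was 0.50 against 0.05 over all genes. Hsd17b7, the 3-ketosteroid reductase, read 7.57 and 7.03 in EpiLCs and 5.08 and 5.51 in ESCs. That is a rise of 2.00 ± 0.21 (SE, limma adjusted p = 4.36e-07). Lss, which closes the sterol ring, read 10.13 and 10.07 against 8.18 and 8.36, a rise of 1.84 ± 0.14. Sc5d, a sterol desaturase, rose by 1.54 ± 0.22 and Stard4, a sterol carrier, by 1.51 ± 0.22. The others that rose were Mvd (1.46), Idi1 (1.23), Cyp51 (1.21) and Sqle (1.05).

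Ebp read 7.78 and 7.85 in the same EpiLCs and 10.07 and 10.19 in ESCs, a log2 change of -2.32 ± 0.19 (4.98-fold lower, adjusted p = 1.53e-08). Srebf1 also fell (-1.20 ± 0.18), from 11.48 and 11.27 to 10.25 and 10.10. For both genes the EpiLC and ESC arrays lay far apart. Hmgcs1 (0.79 ± 0.17), Scd1 (-0.68 ± 0.24), Scd2 (-0.25 ± 0.20), Insig1 (-0.53), Fasn (0.08) and Srebf2 (0.43) did not pass the fold limit. The EpiLCs and ESCs of this comparison are different clones, so clone and state cannot be told apart. The Sqle call was lost without EpiLC replicate 1 or either ESC array (0.90 to 1.21 over 4 fits), and, averaging all probe sets of a gene, those of Sc5d (0.98) and Cyp51 (0.88) were lost.

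In the earlier set, where ESCs and EpiLCs carry the same reporters, 4 genes rose and 1 fell at 48 h, against 7.26% and 7.09% of all genes (median 0.14 against 0.02). Hsd17b7 read 7.42 and 7.21 in EpiLCs and 5.60 and 5.62 in ESCs, a rise of 1.70 ± 0.21. Lss rose by 1.37 ± 0.14, Mvd, the mevalonate decarboxylase, by 1.15 ± 0.18 and Pmvk, the kinase before it, by 1.06 ± 0.21. Ebp fell again, from 10.90 and 10.61 to 8.26 and 8.42 (-2.41 ± 0.19, adjusted p = 1.24e-08). Idi1 (0.98), Hmgcs1 (0.06 ± 0.17), Scd2 (-0.66 ± 0.20) and Scd1 (-0.69 ± 0.24) stayed within 2-fold. With the replicate number as a block, 3 genes fell instead of 1, Fads1 (-1.15, adjusted p = 0.0112) and Msmo1 (-1.65, adjusted p = 0.0422) being added. Without EpiLC replicate 1, the count of falls was 2. The Pmvk call was lost on the deposited values (0.95), with median centring (0.99) and on the earlier arrays alone (adjusted p = 0.05).

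In the epiblast the set was lower than in ESCs rather than higher. None of the genes rose under limma (3 rose at an unadjusted p under 0.05) and 6 fell, against 7.58% and 9.43% of all genes, with a median of -0.55 against -0.03. Ebp read 8.16 and 7.75 against 10.90 and 10.61 in ESCs (-2.79 ± 0.19). Tm7sf2, a sterol C14 reductase, fell by 2.44 ± 0.36 on the log2 scale, its epiblast arrays at 7.51 and 6.09 lying apart from each other and below the ESC arrays at 9.35 and 9.13. Fads1, a desaturase of polyunsaturated fatty acids, fell (-1.71 ± 0.44), as did Acss2, which makes acetyl-CoA from acetate (-1.70 ± 0.24), Scd1 (-1.60 ± 0.24) and Srebf1 (-1.55 ± 0.18). The Fads1 call was lost without ESC replicate 1 (-1.89 to -1.54 over 4 fits). Without ESC replicate 1 or epiblast replicate 2, 1 gene, Idi1, rose (1.09 and 1.03). With the replicate number as a block, Msmo1 (-1.98, adjusted p = 0.0142) and Insig1 (-1.03, adjusted p = 0.014) also fell. Visceral endoderm markers were higher in the epiblast than in ESCs (5 of 7, median 3.51), as were 3 of 5 primitive streak markers (median 1.48), and the part of either in these changes was not tested.

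EpiLCs of 48 h exceeded the epiblast in 8 genes and fell below it in none (20 and 0 at an unadjusted p under 0.05), against 3.29% and 1.45% of all genes. The median difference was 0.66 against 0.05, and 30 of 31 genes had a positive difference. Mvd read 9.98 and 10.23 in EpiLCs and 7.99 and 8.36 in the epiblast, a difference of 1.93 ± 0.18 (3.81-fold, adjusted p = 1.01e-06). Pmvk read 10.28 and 10.35 against 8.64 and 8.24 (1.87 ± 0.21). Tm7sf2 (1.72 ± 0.36), Lss (1.51 ± 0.14), Mvk (1.19), Cyp51 (1.11), Acss2 (1.07) and Stard4 (1.06) were also higher. Visceral endoderm markers were lower in EpiLCs (4 of 7, median -1.65), as were primitive streak markers (3 of 5, median -2.41), and their part was not tested. With the mean of all probe sets 4 genes were higher, the calls of Mvk (0.82), Cyp51 (0.70), Stard4 (0.61) and Acss2 (0.72) being lost. On the earlier arrays alone Tm7sf2 was not called (adjusted p = 0.0959). The Tm7sf2 call was lost without epiblast replicate 2, that of Stard4 without epiblast replicate 1 or EpiLC replicate 2, and that of Acss2 without epiblast replicate 2 or EpiLC replicate 2.

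**Figure D2:**
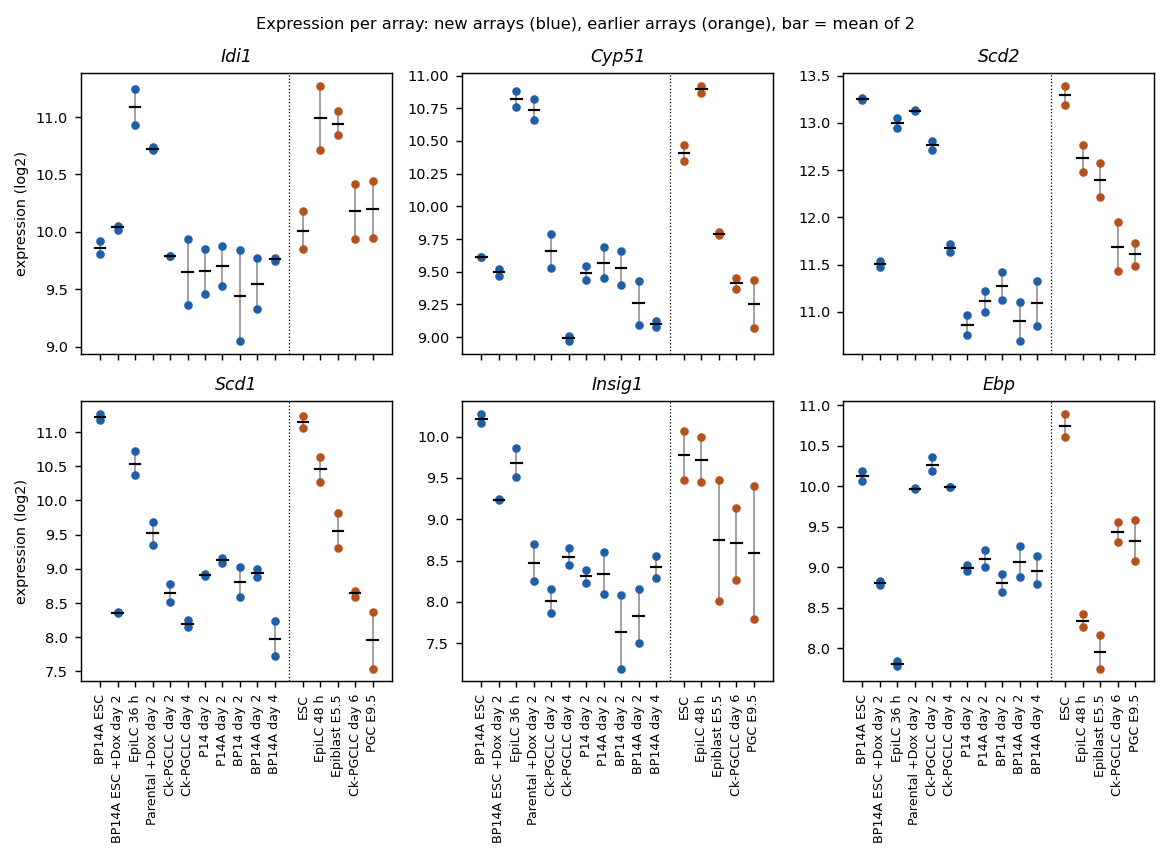
Log2 expression of 6 genes on each of the 32 arrays, in 11 new groups (blue) and 5 earlier groups (orange); points are arrays and bars the mean of 2. Scd2 lies between 10.69 and 11.42 in the TF-PGCLCs of day 2 and at 13.13 and 13.14 in the parental cells with doxycycline, and Ebp is lowest in EpiLCs and the epiblast.

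Against EpiLCs of 36 h, the median change of the set was negative in all 3 groups of day 2 that were compared with them. The parental cells with doxycycline, Ck-PGCLCs of day 2 and BP14A cells of day 2 were each compared with the same 2 EpiLC arrays, so the 3 comparisons share their control. In the parental cells 1 gene rose and 2 fell, against 7.23% and 5.63% of all genes (median -0.45 against -0.05). Ebp rose by 2.16 ± 0.19, from 7.78 and 7.85 to 9.97 and 9.98. Dhcr7, the last enzyme of cholesterol synthesis, fell by 1.25 ± 0.33 on the log2 scale and Scd1 by 1.03 ± 0.24. Scd2 had a difference of 0.14 ± 0.20 (95% interval -0.28 to 0.56), at 13.13 and 13.14 against 13.05 and 12.95. The Cyp51 arrays, at 10.82 and 10.66 against 10.88 and 10.76, overlapped. Both falls were lost without EpiLC replicate 1, an array of low Gapdh 5′ signal, or parental replicate 2, and without parental replicate 1 there were 4. On the deposited values or with median centring 1 gene fell, and without the arrays of low Gapdh 5′ signal none did. All 5 primitive streak markers were higher in the parental cells (median 5.41), and their part was not tested.

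In Ck-PGCLCs of day 2, 13 genes fell and 1 rose, against 6.06% and 8.42% of all genes, and the median change was -1.01 against -0.04. Dhcr7 read 6.52 and 6.53, against 8.65 and 8.29 in EpiLCs (-1.95 ± 0.33, adjusted p = 0.000166). Scd1 read 8.78 and 8.52 against 10.72 and 10.37 (-1.89 ± 0.24). Lss fell by 1.67 ± 0.14 and Insig1 by 1.67 ± 0.48 on the log2 scale. Mvd fell to 8.02 and 7.85 from 9.67 and 9.48 (-1.64 ± 0.18).

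The other falls were Fads2 (-1.54), Sqle (-1.47 ± 0.33), Idi1 (-1.30), Fdft1 (-1.29), the squalene synthase, Stard4 (-1.25 ± 0.22), Cyp51 (-1.16), Acaca (-1.10 ± 0.15) and Nsdhl (-1.05). Ebp went the other way, to 10.36 and 10.19 (2.46 ± 0.19, 5.51-fold). Hmgcs1 (-0.67 ± 0.17) and Fasn (-0.62 ± 0.13) were lower by less than 2-fold, while Scd2 (-0.24 ± 0.20, 95% interval -0.66 to 0.18), at 12.81 and 12.71, lay close to EpiLCs. Without EpiLC replicate 1 the calls of Nsdhl (-1.29 to -0.82 over 4 fits) and Acaca (-1.29 to -0.90) were lost, without EpiLC replicate 2 or Ck-PGCLC replicate 1 that of Insig1, and without Ck-PGCLC replicate 2 that of Nsdhl. Nsdhl (-0.93), Stard4 (-0.99) and Acaca (just under 2-fold) were not called on the deposited values, nor Nsdhl with median centring (-0.96). When all probe sets of a gene were averaged, the calls of Fdft1 (-0.93), Cyp51 (-0.96), Stard4 (-0.75) and Acaca (-0.76) were lost, and without the arrays of low Gapdh 5′ signal those of Sqle, Nsdhl, Insig1 and Acaca. The 5 primitive streak markers all rose in this step (median 7.07), from a summed 6.07 and 6.14 to 12.26 and 12.39, and their part in the falls was not tested. Among all genes called in this comparison 58.2% were higher, and 69.5% on the deposited values.

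In BP14A cells of day 2, 11 genes fell and 1 rose from the same EpiLCs, against 5.36% and 6.25% of all genes (median -0.80 against -0.02). Dhcr7 read 5.91 and 6.38 (-2.33 ± 0.33, 5.02-fold lower). Scd2 fell to 11.10 and 10.69 from 13.05 and 12.95 (-2.10 ± 0.20, adjusted p = 2.67e-07), and Insig1 fell by 1.85 ± 0.48 on the log2 scale, to 7.50 and 8.16. Scd1 fell by 1.60 ± 0.24, Cyp51 by 1.56 ± 0.15 and Idi1 by 1.54 ± 0.27. Hsd17b7 (-1.26), Sc5d (-1.24), Nsdhl (-1.15), Lss (-1.14) and Stard4 (-1.13) fell as well.

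Ebp rose to 8.88 and 9.26 (1.26 ± 0.19). Mvd, at 9.33 and 9.10, Sqle, at 11.71 and 11.05, and Acaca, at 10.30 and 10.22, were not called. BP14A cells and these EpiLCs are different clones. Without the 6 arrays of low Gapdh 5′ signal 7 genes fell, and the calls of Nsdhl, Hsd17b7, Insig1 and Stard4 were lost. When all probe sets of a gene were averaged, the calls of Scd2 (-1.66, adjusted p = 0.0619), Hsd17b7 (-0.93), Sc5d (-0.95) and Stard4 (-0.70) were lost. The calls lost without the arrays of low Gapdh 5′ signal were also lost in single leave-outs: Nsdhl and Stard4 without EpiLC replicate 1 or BP14A replicate 2, Hsd17b7 without EpiLC replicate 1 (-1.53 to -0.99), and Insig1 without EpiLC replicate 2 or BP14A replicate 1.

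**Figure D3:**
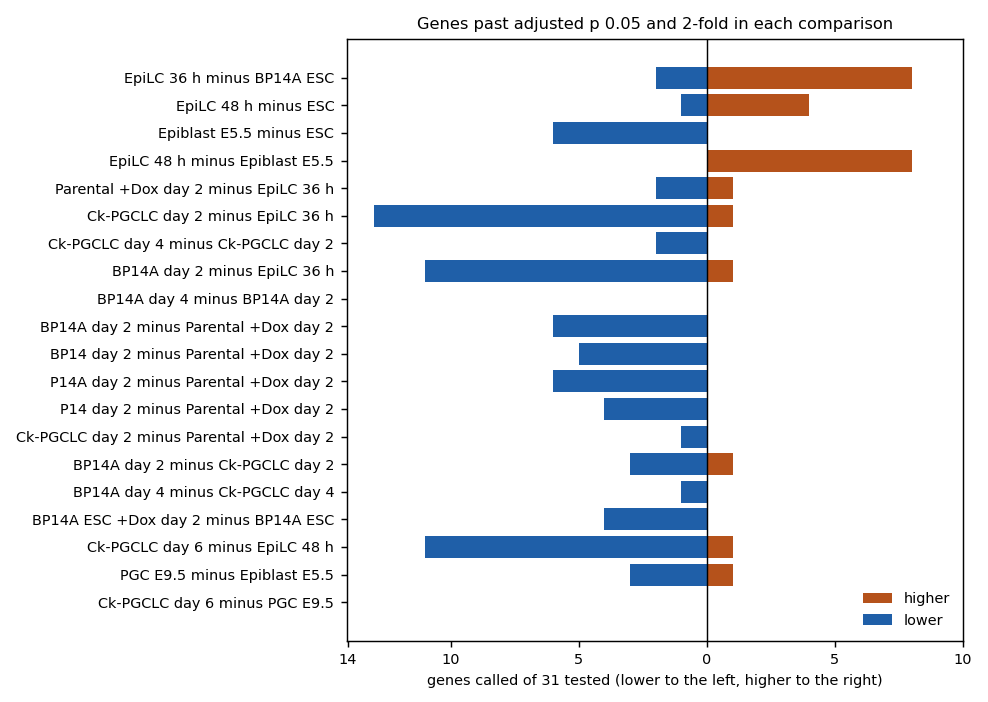
Number of the 31 genes that were lower (left, blue) or higher (right, orange) at an adjusted p under 0.05 and at least 2-fold in each of 20 comparisons. Against EpiLCs, 13, 11 and 11 genes were lower and 1 higher in Ck-PGCLCs of day 2, BP14A cells of day 2 and Ck-PGCLCs of day 6, and 2 were lower and 1 higher in the parental cells.

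Factor-induced cells had lower Scd2 than the parental cells with doxycycline. The 4 factor combinations share the 2 parental arrays as control. Scd2 read 13.13 and 13.14 in those, 10.75 and 10.97 with P14, 11.00 and 11.22 with P14A, 11.42 and 11.12 with BP14, and 11.10 and 10.69 with BP14A. The factor arrays all lay below the parental arrays, with a wide gap. The log2 changes were -2.28 ± 0.20 with P14, -2.02 ± 0.20 with P14A, -1.87 ± 0.20 with BP14 and -2.24 ± 0.20 with BP14A (adjusted p = 6.97e-08), or 3.65-fold to 4.85-fold. The 2 dimmer Scd2 probe sets also differed downward between BP14A and parental cells, by -4.95 and -0.89. Ck-PGCLCs of day 2, against the same parental arrays, had a Scd2 difference of -0.38 ± 0.20 (95% interval -0.80 to 0.04).

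In BP14A, 6 genes were lower and none higher (2 higher at an unadjusted p under 0.05 in limma), against 7.25% and 6.63% of all genes. Cyp51 read 9.43 and 9.09 against 10.82 and 10.66 (-1.48 ± 0.15), Idi1 differed by -1.17 ± 0.27, Hsd17b7 by -1.13 ± 0.21, Sc5d by -1.10 ± 0.22 and Dhcr7 by -1.08 ± 0.33. In P14A, 6 were also lower and none higher (1 at an unadjusted p under 0.05), against 6.81% and 5.65%: beside Scd2, Cyp51 (-1.17), Dhcr7 (-1.14), Hsd17b7 (-1.05), Idi1 (-1.02) and Sc5d (-1.01). In P14, 4 were lower and none higher (1 at an unadjusted p under 0.05), against 6.6% and 6.34%: Scd2, Cyp51 (-1.25 ± 0.15), Idi1 (-1.06 ± 0.27) and Sc5d (-1.01 ± 0.22).

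In BP14, 5 were lower and none higher (0 at an unadjusted p under 0.05), against 6.43% and 6.39%: Scd2, Fads1 (-1.44 ± 0.44), Idi1 (-1.28 ± 0.27), Cyp51 (-1.21 ± 0.15) and Ebp (-1.17 ± 0.19). Fasn, the fatty acid synthase, differed by -0.16 (BP14), -0.14 (P14), -0.11 (P14A) and -0.01 (BP14A). Without parental replicate 1 the BP14A count fell to 3 and the P14A count to 2, losing Hsd17b7, Sc5d and Dhcr7, and Idi1 in P14A. Without P14A replicate 1 that count was 3, Idi1, Sc5d and Dhcr7 being lost. Parental replicate 1 also decided the Sc5d call of P14, and parental replicate 2 the Dhcr7 calls of BP14A and P14A and the Idi1 call of P14A. The BP14 calls of Idi1 (-1.67 to -0.89) and Fads1 (-2.16 to -0.72) were lost without BP14 replicate 1, an array of low Gapdh 5′ signal, and that of Fads1 also without either parental array. The Idi1 calls of BP14A and P14, and the Dhcr7 call of BP14A, were lost without replicate 1 of those cells. Averaged over all probe sets, Sc5d was no longer called in BP14A (-0.80), P14A (-0.86) and P14 (-0.76), Hsd17b7 in BP14A (-0.77) and P14A (-0.62), and Fads1 in BP14 (-0.58). With median centring the Idi1 call of P14 was lost (-0.98).

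Between Ck-PGCLCs of day 2 and the parental cells, 1 gene was lower and none higher (0 at an unadjusted p under 0.05 in limma), against 1.41% and 2.32% of all genes. It was Cyp51, at 9.79 and 9.53 against 10.82 and 10.66 (-1.08 ± 0.15, adjusted p = 9.33e-05). In all, 28 of 31 genes had a negative difference (median -0.46 against 0.02). Lss (-0.91 ± 0.14), Scd1 (-0.87 ± 0.24) and Mvd (-0.80 ± 0.18) had differences under 2-fold. The Cyp51 call was lost without parental replicate 1 or Ck-PGCLC replicate 2, and without Ck-PGCLC replicate 1 there were 3 lower genes. Primitive streak markers were high in both groups (summed 11.71 to 12.39) and at 4.90 to 5.35 in the TF-PGCLCs of day 2, and their part in the comparisons with parental cells was not tested.

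The cytokine and factor routes differed at day 2 in 4 genes. Mvd was higher in BP14A cells, at 9.33 and 9.10 against 8.02 and 7.85 in Ck-PGCLCs (1.28 ± 0.18). Scd2 was lower (-1.86 ± 0.20, 3.63-fold), as were Ebp (-1.20 ± 0.19), at 8.88 and 9.26 against 10.36 and 10.19, and Hsd17b7 (-1.15 ± 0.21). These are 1 gene higher and 3 lower, against 5.55% and 7.01% of all genes. The median gene did not separate the routes (0.05, as over all genes). With the mean of all probe sets 1 gene was lower, since the calls of Scd2 (-1.28, adjusted p = 0.158) and Hsd17b7 (-0.62) were lost. Median centring, or leaving out BP14A replicate 2, made 2 genes higher. All 5 primitive streak markers were lower in BP14A cells (median -7.27), and their part in the 4 differences was not tested.

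In Ck-PGCLCs, Hsd17b7 fell between day 2 and day 4 (-1.14 ± 0.21) from 7.18 and 7.21 to 5.98 and 6.14, and Scd2 fell (-1.08 ± 0.20) from 12.81 and 12.71 to 11.72 and 11.63. These were the 2 falls, with no rise (3 at an unadjusted p under 0.05 in limma), against 6.84% and 5.68% of all genes. Mvd had a difference of 0.98 ± 0.18 and Cyp51 of -0.67 ± 0.15. Without Ck-PGCLC day 2 replicate 1 or day 4 replicate 2, 1 gene rose. With the mean of all probe sets neither Hsd17b7 (-0.64) nor Scd2 (-0.45) was called, and 1 gene fell, Cyp51 (-1.02). Primitive streak markers fell in 4 of 5 genes in this step (median -4.77), and 2 of 5 fibroblast markers rose, their part not being tested.

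In BP14A cells no gene of the set was called between day 2 and day 4, against 0.936% higher and 0.497% lower of all genes. At an unadjusted p under 0.05 in limma, 2 were higher and 8 lower. Scd2 stayed at 10.85 and 11.33 (0.19 ± 0.20). Scd1 (-0.97 ± 0.24), Mvd (-0.81 ± 0.18) and Lss (-0.69 ± 0.14) had adjusted p under 0.05 but under 2-fold differences. Dhcr7 had a difference of 1.05 ± 0.33 (adjusted p = 0.113, and 0.0462 in the fit on the new arrays alone). Fdps, the farnesyl diphosphate synthase, had the widest difference (-3.01 ± 1.23) with arrays at 2.15 and 4.29 against 5.98 and 6.49, and it was not called. Its replicates lay far apart in other groups too, at 3.08 and 6.85 in BP14. Both BP14A arrays of day 4 had a low Gapdh 5′ signal, and 2 of 3 neural markers were higher on them (median 2.31); the part of either was not tested. Among all genes called 65.3% were higher, and 77.4% on the deposited values.

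At day 4, BP14A cells were lower than Ck-PGCLCs in 1 gene and higher in none (2 higher at an unadjusted p under 0.05 in limma), against 2.74% and 3.39% of all genes. It was Ebp, at 9.14 and 8.79 against 9.99 and 9.99 (-1.03 ± 0.19). The call was lost with median centring (-0.96) and without BP14A replicate 2, and without that array or Ck-PGCLC replicate 2, 1 gene was higher. Fibroblast markers were lower in BP14A cells (3 of 5, median -1.50) and neural markers higher (2 of 3, median 2.15), which was not tested as a source of the difference. The change from day 2 to day 4 itself differed between the routes for 3 genes, 2 higher and 1 lower, against 6.92% and 4.92% of all genes. The difference of changes, BP14A minus cytokine, was -1.79 ± 0.25 for Mvd (adjusted p = 6.44e-05), 1.39 ± 0.29 for Hsd17b7 and 1.28 ± 0.28 for Scd2. With the mean of all probe sets it was 0.57 for Hsd17b7 and -0.46 for Scd2, neither called. Without Ck-PGCLC day 4 replicate 2, 2 genes were lower. For the streak markers the same difference was positive in 5 of 5 and called in 4, and its part was not tested.

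In ESCs given doxycycline to induce the 3 factors, without the EpiLC step, the stearoyl-CoA desaturases Scd1 and Scd2 were lower. Scd1 read 8.35 and 8.37 in the stella-ECFP positive BP14A cells with doxycycline and 11.27 and 11.18 in the BP14A ESCs (-2.86 ± 0.24, 7.27-fold lower, adjusted p = 1.21e-07). Scd2 read 11.47 and 11.54 against 13.26 and 13.24 (-1.75 ± 0.20). Srebf1, a regulator of fatty acid genes, fell to 9.69 and 10.03 from 11.48 and 11.27 (-1.52 ± 0.18), and Ebp fell to 8.78 and 8.83 (-1.32 ± 0.19). These were 4 lower genes and none higher (2 at an unadjusted p under 0.05 in limma), against 3.9% and 5.51% of all genes. The other desaturases of the set were not called, Fads1 at -1.30 ± 0.44 (adjusted p = 0.0524) and Fads2 at -0.30 ± 0.25. Fads1 was called with the stricter filter (adjusted p = 0.0407), with trend and robust variance (adjusted p = 0.0436) and on the new arrays alone (adjusted p = 0.0327). The median gene moved by -0.15 against 0.02, and Hmgcs1 (0.29 ± 0.17), Idi1, Cyp51 and Fasn (-0.42 ± 0.13) stayed within 2-fold. The labels name a reporter-positive selection for the doxycycline cells alone, so selection and induction cannot be told apart. The titles name 2i+LIF medium only for the ESCs without doxycycline, and no BP14A ESCs kept 2 days without doxycycline were measured. Medium, time in culture and doxycycline itself thus cannot be told apart from induction either.

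In the earlier set, Ck-PGCLCs of day 6 were lower than the EpiLCs of 48 h in 11 genes and higher in 1, against 9.38% and 9.26% of all genes (median -0.94 against -0.03). Pmvk read 8.66 and 8.22 against 10.28 and 10.35 (-1.88 ± 0.21, adjusted p = 1.21e-06). Scd1 read 8.59 and 8.68 against 10.64 and 10.27 (-1.82 ± 0.24). Lss fell by 1.72 ± 0.14 and Acly by 1.69 ± 0.17 on the log2 scale, Acly to 10.80 and 10.51 from 12.43 and 12.26. The others lower were Nsdhl (-1.55), Cyp51 (-1.49), Stard4 (-1.45 ± 0.22), Fads2 (-1.27), Tm7sf2 (-1.27), Acaca (-1.25 ± 0.15) and Mvk (-1.10).

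Ebp was again the gene that rose (1.10 ± 0.19), to 9.56 and 9.32. Hmgcs1 had a difference of -0.09 ± 0.17, Fasn of -0.62 ± 0.13 and Scd2 of -0.94 ± 0.20. With the replicate number as a block, Fads1 (-1.08, adjusted p = 0.0135) and Insig1 (-1.02, adjusted p = 0.014) were also called. With the mean of all probe sets 7 genes fell, the calls of Acly (-0.73, adjusted p = 0.0685), Acaca (-0.28, adjusted p = 0.641), Mvk (-0.68) and Stard4 (-0.93) being lost. Mvk was not called on the deposited values (-0.99), nor Tm7sf2 on the earlier arrays alone (adjusted p = 0.0704). Of the streak markers 3 of 5 rose in this step (median 2.96), and their part was not tested. The Ebp call was lost without Ck-PGCLC replicate 1 (0.98 to 1.22 over 4 fits), that of Mvk without EpiLC replicate 2 and that of Tm7sf2 without EpiLC replicate 2 or Ck-PGCLC replicate 2.

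In the embryo, 3 genes fell and 1 rose between epiblast and PGCs, against 6.9% and 8.9% of all genes (median -0.34 against 0.00). Acly read 10.55 and 10.04 in PGCs and 11.97 in both epiblast arrays (-1.68 ± 0.17, adjusted p = 4.17e-07). Scd1 read 8.37 and 7.54 against 9.81 and 9.30 (-1.60 ± 0.24), and Fads2 fell by 1.27 ± 0.25 on the log2 scale. Ebp rose from 8.16 and 7.75 to 9.58 and 9.08 (1.37 ± 0.19). Scd2 (-0.79 ± 0.20), Hmgcs1 (-0.20 ± 0.17) and Fasn (-0.19 ± 0.13) were not called. Without epiblast replicate 1, the array with most visceral endoderm marker signal, 2 genes rose, Tm7sf2 (1.58) being added. Neural markers rose in PGCs in 3 of 3 genes (median 2.70) and fibroblast markers in 3 of 5 (median 1.35), while 2 of 7 visceral endoderm markers fell (median -1.03), and the part of these was not tested.

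The step in culture and the step in the embryo differed in 4 genes, all with the lower change in culture, against 3.47% of all genes; none differed the other way (0 at an unadjusted p under 0.05 in limma), against 2.28%. The difference of changes was -2.15 ± 0.50 for Tm7sf2 (adjusted p = 0.0128), -1.30 ± 0.19 for Lss (adjusted p = 0.000298), -1.21 ± 0.25 for Mvd and -1.15 ± 0.29 for Mvk. At the end points Lss read 8.73 and 8.88 in Ck-PGCLCs of day 6 and 8.76 and 8.44 in PGCs, while EpiLCs read 10.45 and 10.60 and the 2 epiblast arrays averaged 9.01 ± 0.01 (SD). Mvd averaged 9.24 ± 0.33 (SD) in Ck-PGCLCs of day 6, and its PGC arrays, at 8.42 and 8.61, both lay below those cells. Averaged over all probe sets, the Mvk difference was -0.53 and not called. In a fit on the 10 earlier arrays alone none of the 4 was called, with adjusted p of 0.0641 for Lss, 0.127 for Mvk and 0.158 for Mvd and Tm7sf2. Without PGC replicate 1 the count was 2. Mvk was lost in 5 of 8 leave-outs, Tm7sf2 without PGC replicate 1 or epiblast replicate 2, and Mvd without Ck-PGCLC replicate 1.

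**Figure D4:**
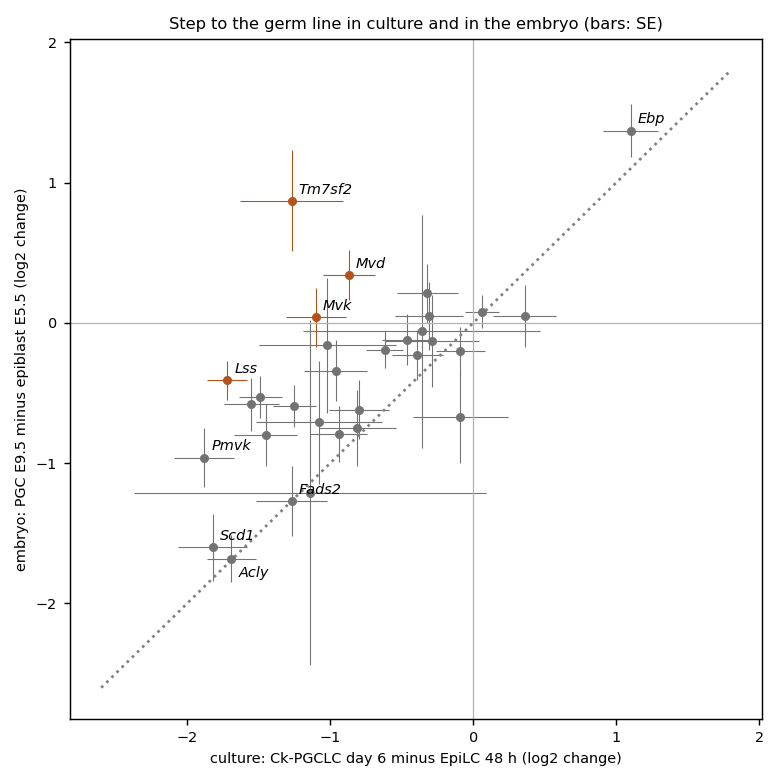
Log2 change (± SE) of the 31 genes from EpiLCs of 48 h to Ck-PGCLCs of day 6 (x axis) against that from epiblast to PGCs (y axis); the dotted line marks equal change. The 4 genes in orange (Tm7sf2, Mvd, Mvk, Lss) differed between the steps, and Ebp alone is well above 0 on both axes.

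Between Ck-PGCLCs of day 6 and PGCs no gene of the set was called (limma; 8 higher and 0 lower at an unadjusted p under 0.05), against 3.9% higher and 3.46% lower of all genes. The median difference was 0.21 against 0.00. Pmvk (0.96 ± 0.21, adjusted p = 0.0046), Mvd (0.72 ± 0.18), Hsd17b7 (0.69 ± 0.21) and Srebf1 (0.63 ± 0.18) had adjusted p under 0.05 at less than 2-fold. Scd1 differed by 0.68 ± 0.24 (95% interval 0.17 to 1.19) and Ebp by 0.11 ± 0.19 (95% interval -0.28 to 0.50). Without PGC replicate 1, 2 genes were higher, and without Ck-PGCLC replicate 2, 1 was. Markers of other cells were lower in the Ck-PGCLCs: 2 of 5 of fibroblasts (median -0.68), 2 of 3 neural (median -3.21) and 2 of 7 of visceral endoderm (median -0.64). Their part in this comparison was not tested.

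Ebp, which shifts a sterol double bond late in the pathway, thus read 7.75 to 8.42 on the 6 arrays of EpiLCs and epiblast, and 8.70 or more on the other 26. These 2 sets of arrays pool new and earlier arrays and were formed after the Ebp values were seen. How many other genes separate them was not counted. Within the PGCLC groups, Ck-PGCLCs of day 2 and day 4 (9.99 to 10.36) lay above all TF-PGCLC arrays (8.70 to 9.26). Ebp has a single probe set, so no other probe set could be set beside it.

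Genes of sterol export and LXR response, the arm that removes cholesterol, were counted from a separate list of which 8 were tested. Of these, 5 fell and none rose from ESCs to EpiLCs in the new set (7.45% of all genes fell), in the earlier set (7.09%) and from ESCs to epiblast (9.43%). Abca1, a cholesterol exporter, changed by -3.42 ± 0.42, -4.31 ± 0.42 and -3.82 ± 0.42, and Abca7, a related transporter, by -2.90 ± 0.29, -1.86 ± 0.29 and -3.33 ± 0.29. From EpiLCs of 36 h, none rose and 3 fell in the parental cells, against 7.23% and 5.63% of all genes. In Ck-PGCLCs of day 2, 2 rose and 2 fell (8.42% and 6.06% of all genes), and in BP14A cells of day 2 likewise 2 rose and 2 fell (6.25% and 5.36%). With doxycycline in BP14A ESCs 5 fell, against 3.9% of all genes, and none rose, Abca1 by 3.26 ± 0.42 on the log2 scale and Mylip, a ubiquitin ligase of the LXR response, by 2.29 ± 0.26. In BP14A cells against parental cells 3 were higher (6.63% of all genes) and none lower, among them Abcg1 (2.72 ± 0.34) and Abca7 (2.34 ± 0.29). In Ck-PGCLCs, 3 rose, against 5.68% of all genes, and none fell from day 2 to day 4 (Abcg1 by 3.66 ± 0.34, Abca7 by 2.47 ± 0.29). From EpiLCs to day 6, 4 rose, against 9.26% of all genes, and none fell (Abca1 by 2.77 ± 0.42, Abca7 by 1.88 ± 0.29).

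Of 17 tested genes of sterol uptake, trafficking and SREBP control, at most 4 changed in a comparison. From ESCs to epiblast, for example, none rose and 4 fell, against 7.58% and 9.43% of all genes. From ESCs to EpiLCs of 36 h, 1 rose and 2 fell, against 7.17% and 7.45% of all genes, among them Lpin1, a regulator of lipid synthesis (-1.69 ± 0.30), and from EpiLCs to Ck-PGCLCs of day 2, 1 rose (Npc1, which moves cholesterol out of lysosomes, 1.12 ± 0.14) and 1 fell (Mbtps2, -1.16 ± 0.22), against 8.42% and 6.06% of all genes. Scap and Mbtps2 are parts of the machinery that carries and cuts SREBP. Against the parental cells, 1 of the 17 was higher and 3 lower with P14, against 6.34% and 6.6% of all genes. With P14A, BP14 and BP14A, 1 was higher and 2 lower in each. The shares of all genes there were 5.65%, 6.39% and 6.63% higher and 6.81%, 6.43% and 7.25% lower. Scap differed by -1.42 ± 0.24 with P14, -1.48 ± 0.24 with P14A, -1.53 ± 0.24 with BP14 and -1.38 ± 0.24 with BP14A. Mbtps2 differed by 1.54 ± 0.22, 1.49 ± 0.22, 1.76 ± 0.22 and 1.48 ± 0.22 in the same order. Vldlr, a lipoprotein receptor, was lower in BP14A cells than in Ck-PGCLCs at day 2 (-1.95 ± 0.35). In that comparison 1 of the 17 was higher and 3 lower, against 5.55% and 7.01% of all genes.

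Of 19 tested enzymes and regulators of fatty acid synthesis outside the set, 3 rose and 1 fell from ESCs to EpiLCs of 36 h (7.17% and 7.45% of all genes), Mid1ip1, an activator of acetyl-CoA carboxylase, by 2.76 ± 0.18 and Acsl5, an acyl-CoA synthetase, by 2.24 ± 0.24. From EpiLCs to Ck-PGCLCs of day 2 none rose and 3 fell (8.42% and 6.06% of all genes), among them Acacb, the mitochondrial acetyl-CoA carboxylase (-2.66 ± 0.25), and Acsl4 (-2.32 ± 0.28). From EpiLCs of 48 h to day 6, 1 rose and 6 fell (9.26% and 9.38% of all genes), and from epiblast to PGCs none rose and 3 fell (8.9% and 6.9%). Acsl4, which activates arachidonate, changed by -4.43 ± 0.28 in culture and by -3.79 ± 0.28 in the embryo, and Me1, the malic enzyme that supplies NADPH, by -3.00 ± 0.22 and -2.99 ± 0.22. Against the parental cells, Acacb was higher in all 4 factor groups, by 1.78 ± 0.25 with P14, 1.67 ± 0.25 with P14A, 1.77 ± 0.25 with BP14 and 1.70 ± 0.25 with BP14A.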

How the data were processed

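Values came from 1-colour Affymetrix arrays. Per the series' design text the cDNA was amplified by PCR, and per the labels' protocols biotinylated cRNA was hybridised. Per the files, the authors deposited 1 log2 value per probe set; the scale was read from the values (0 to 14.59), and the software behind them is not given in the sources used here. Array medians over the 45101 probe sets spanned 4.62 to 4.79. For this reason the values were quantile normalized over all 32 arrays, after the 64 control probe sets had been left out. Of the rest, 34945 carried 1 gene symbol and 932 several. The probe set with the highest mean stood for each of 18193 genes. Genes with at least 1 group mean at or above the 40th percentile of all values (log2 4.05) were kept, 15497 in all. One limma model (version 3.58.1, R 4.3.3, data.table package 1.17.8) held all 16 groups (16 residual degrees of freedom), and no contrast crossed from new to earlier arrays. Benjamini-Hochberg adjustment ran over all genes tested, and a call needed an adjusted p under 0.05 and at least 2-fold. Intervals are 95% intervals from the model.

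The 31 genes, the other lists and the markers were chosen with earlier results of these data known. In each comparison the text gives in full, among the genes called, up to 4 with the largest rise and up to 4 with the largest fall, and may add Hmgcs1, Sqle, Insig1, Srebf1, Srebf2, Stard4, Scd1, Scd2, Fasn, Acly and Acaca. Other lists are given by counts with up to 2 genes named per direction. Genes named beyond this, as for lost calls and for the account of Ebp over all arrays, were chosen after their values were seen. The series' design text calls the duplicates biological, but no label names separate cultures or animals, so p-values measure only the spread between these samples. Replicates correlated at 0.9663 to 0.986, and no 2 arrays were identical. Equal replicate numbers went together in the earlier set. There, deviations from the group mean correlated over 0.1 in 10 of 10 pairs of groups (median 0.37). In the new set they did so in 25 of 55 (median 0.07). The main model did not use any pairing, so its errors and p-values in the earlier set leave this likeness out. The replicate block, run as an alternative, used the replicate number in both sets. The method was tested on simulated data. Alternatives were the deposited values, median centring, other filters, the mean of all probe sets, trend and robust variance, the replicate block, each array set alone, leaving out each array and, added after seeing the data, leaving out 6 arrays of low Gapdh 5′ signal.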

Additional observations from a re-analysis of the deposited data

Results flagged for a closer look

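The following changes differed between 2 routes in a test of the difference itself (limma interaction, Benjamini-Hochberg adjusted over all genes tested). From day 2 to day 4, BP14A minus cytokine, the difference was -1.79 ± 0.25 (SE) for Mvd (adjusted p = 6.44e-05), 1.39 ± 0.29 for Hsd17b7 (adjusted p = 0.00265) and 1.28 ± 0.28 for Scd2 (adjusted p = 0.00403). For Mvd, the cytokine cells stood at 8.02 and 7.85 on day 2 and 9.01 and 8.83 on day 4, and the BP14A cells at 9.33 and 9.10 and then 8.43 and 8.38, so the arrays of each route moved in opposite directions.

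From EpiLCs of 48 h to Ck-PGCLCs of day 6, minus epiblast to PGCs, the difference was -1.15 ± 0.29 for Mvk (adjusted p = 0.0225), -1.21 ± 0.25 for Mvd (adjusted p = 0.00596), -1.30 ± 0.19 for Lss (adjusted p = 0.000298) and -2.15 ± 0.50 for Tm7sf2 (adjusted p = 0.0128). For Tm7sf2, the culture values went from 8.34 and 8.70 to 7.28 and 7.21, and the embryo values from 7.51 and 6.09 to 7.93 and 7.42.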

How the results depend on the processing

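Of 114 gene calls, all kept their direction and side of the threshold with no filter, with the stricter filter, with trend and robust variance and with the replicate block. On the deposited values 108 did, with median centring 109, with the mean of all probe sets 83, on the new arrays alone 75 of 75, on the earlier arrays alone 32 of 39, and without the arrays of low Gapdh 5′ signal 35 of 48. Without each array in turn 80 kept it throughout. The 1 reversal was Scd2 in the difference between routes, at -0.46 when all probe sets were averaged. The cause was not tested in any of these. With so few arrays in each group small changes can be missed, and signal over background is unknown for these values.

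Counts that moved by over 1.5 times were as follows. On the deposited values, falls from ESC to EpiLC of 48 h came to 2 and from EpiLC to parental cells to 1. With median centring the latter were 1, rises in BP14A over Ck-PGCLC of day 2 were 2, and falls at day 4 were 0. Averaging all probe sets of a gene, rises were 1 for epiblast over ESC and 4 for EpiLC over epiblast, falls were 1 for Ck-PGCLC day 4 over day 2, 2 for Ck-PGCLC day 2 over parental cells, 1 for BP14A over Ck-PGCLC of day 2 and 7 for day 6 over EpiLC, the difference between routes had 0 higher and 2 lower, and the median span of the genes over the 16 groups was 1.73 instead of 1.91. With the replicate block, falls from ESC to EpiLC of 48 h came to 3. Rises from day 2 to day 4 in BP14A came to 1, and falls of Ck-PGCLC day 2 from parental cells to 2. In the new set, deviations correlated over 0.1 in 25 of 55 pairs of groups (median 0.07, highest 0.48). Whether the replicate numbers pair the samples there is not settled. On the new arrays alone BP14A had 1 rise from day 2 to day 4. On the earlier arrays alone the culture against embryo difference had 0 calls. Without the arrays of low Gapdh 5′ signal, falls from EpiLC were 0 in parental cells and 7 in BP14A.

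Leaving out 1 array at a time, the counts ranged from 1 to 2 for falls from ESC to EpiLC of 48 h, 0 to 1 for rises from ESC to epiblast, 0 to 4 for falls from EpiLC to parental cells, 0 to 1 for rises in Ck-PGCLC from day 2 to day 4, 3 to 7 for falls of BP14A and 2 to 6 for falls of P14A from parental cells, 0 to 3 for those of Ck-PGCLC, 1 to 2 for rises of BP14A over Ck-PGCLC at day 2, 0 to 1 for both directions at day 4, 0 to 1 for rises from EpiLC to day 6, 1 to 2 for rises from epiblast to PGC, 0 to 2 for rises of day 6 over PGC, 1 to 2 for lower genes in the difference between routes and 2 to 6 in that between culture and embryo.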

Other observations

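Fatty acid oxidation, which burns the chains that the described enzymes build, was read from 16 tested genes. Cpt1a, which admits long chains to mitochondria, changed by -2.92 ± 0.70 (SE) from BP14A ESCs to EpiLCs of 36 h and by -2.71 ± 0.70 in the earlier set, and Slc25a20, the carnitine carrier, by -2.38 ± 0.36 and -1.83 ± 0.36. In the first step 1 gene rose and 3 fell, against 7.17% and 7.45% of all genes, and in the earlier set 1 rose and 4 fell, against 7.26% and 7.09%. From EpiLCs, 2 rose (6.25% of all genes) and none fell in BP14A cells of day 2 (Cpt1a by 2.25 ± 0.70, Slc25a20 by 1.40 ± 0.36) and 2 rose (8.42%) and none fell in Ck-PGCLCs of day 2 (Decr1 by 1.65 ± 0.19, Cpt2 by 1.12 ± 0.22).

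From EpiLCs of 48 h to Ck-PGCLCs of day 6, 4 rose and 2 fell, against 9.26% and 9.38% of all genes, among them Ehhadh (2.89 ± 0.87) and Eci1 (-1.29 ± 0.17). From epiblast to PGCs 1 rose, Acadm (1.12 ± 0.25), and 1 fell, Hadh (-1.74 ± 0.20), against 8.9% and 6.9%. Ck-PGCLCs of day 6 exceeded PGCs in 4, against 3.9% of all genes, and fell below them in none, with Cpt1a at 3.25 ± 0.70 and Slc25a20 at 1.78 ± 0.36.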
